A study of Mus musculus with 8 samples.

Results

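The genes described here are 48 mouse genes of mitosis and the kinetochore, a list of named symbols covering the kinases that start mitosis, the spindle checkpoint, the anaphase trigger, the kinetochore, the spindle and the condensed chromosome. Each was found by its symbol in a table of 20484 genes, and 48 of 48 were present and passed the filter on low values, at least 1 RPKM in at least 2 libraries. RNA was sequenced from RN2, an engineered murine acute myeloid leukaemia line that the labels write as MLL-AF9/NRAS G112D on a C57BL/6J background. The 4 groups, each of 2 libraries that the labels call biological replicates, were cells given BBC1115, OTX-015, RVX-208 or the solvent DMSO, and all carried the same engineered alleles. OTX-015 is birabresib, an inhibitor of the BET bromodomain proteins, RVX-208 is apabetalone, which favours the second bromodomain of those proteins, and BBC1115 is a compound known by its code name. No source used here gives the doses or the times of treatment, so the compounds cannot be said to have been compared at matched exposure. Nor do the sources say whether the replicates came from separate cultures, so p-values measure the spread between these libraries, which may be technical, and the line is a single engineered model of the disease.

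Mitosis starts when CDK1 bound to cyclin A or cyclin B becomes active, helped by CDC25 phosphatases and the Polo and Aurora kinases. Kinetochores, built on centromeric chromatin, hold microtubules through the NDC80 complex, and the spindle checkpoint keeps the anaphase-promoting complex inactive until the chromosomes are attached. That complex then marks securin and cyclin B for destruction, separase cuts cohesin, and condensin and topoisomerase II keep the sister chromatids compact and untangled. Transcripts of most of these genes peak late in the cell cycle, in G2 and M phase, so in a bulk sample fewer cells in those phases and fewer transcripts per cell cannot be told apart.

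Levels are in RPKM, reads divided by transcript length in kilobases and by library size, as the authors deposited them. In the DMSO libraries the 48 genes had a median level of 39.9 RPKM, against 13.6 RPKM over the 9975 genes kept for testing, and their means ran from 8.52 RPKM for Cenpf to 146 RPKM for Ube2c. The depth of the libraries was estimated at between 10900000 and 18000000 reads. Leukaemic myeloid markers were detected in all 8 libraries, with Elane at 955.0 to 1565.6 RPKM and Csf1r at 0.433 to 8.38 RPKM. Their group means differed unevenly between treatments. With BBC1115 the ratio to DMSO was 0.0675 for Csf1r, 0.0997 for Spi1, 0.251 for Kit and 0.445 for Ptprc. It was 0.495 for Itgam, 0.698 for Mpo, 0.761 for Elane and 0.918 for Cebpa. With OTX-015 these ratios ran from 0.114 for Csf1r to 0.897 for Ptprc, and with RVX-208 from 0.837 for Cebpa to 1.18 for Ptprc. Of 21 measured markers of lymphoid, erythroid, megakaryocytic, stromal and endothelial or epithelial cells, 9 were at 0 in every library. Their summed level was 5.0 to 5.35 RPKM with BBC1115, 8.31 to 9.31 with OTX-015, 60.9 to 62.1 with RVX-208 and 52.7 to 59.8 with DMSO. Pecam1, which myeloid cells also express, made up 37.9% to 42% of that sum with BBC1115, 78.4% to 80.3% with OTX-015, 96.7% to 97.1% with RVX-208 and 95.7% to 96.8% with DMSO. Epcam, an epithelial marker, stood at 1.01 and 0.999 RPKM with BBC1115, 0.15 and 0.48 with OTX-015, 0 and 0.0384 with RVX-208 and 0.112 and 0.0421 with DMSO. The part of these differences in the results was not tested.

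With BBC1115 most of the mitosis genes were lower than with DMSO, and with OTX-015 they moved both ways. Each call is limma's at an adjusted p under 0.05, and each log2 fold change is on the log2(RPKM + 1) scale. BBC1115 called 31 of 48 genes lower, or 64.6%, against 49.3% of all tested genes, and 4 higher, or 8.33%, against 26.4%. OTX-015 called 16 genes lower, or 33.3%, against 40% of all tested genes, and 9 higher, or 18.8%, against 24.2%, so its shares lay near or under the background. RVX-208 called 0 genes either way with limma, against 0.0902% higher and 0.0802% lower of all tested genes. At an unadjusted p under 0.05, 8 were higher and 2 lower. The share of all tested genes at an unadjusted p was not counted, so no such count here or below has a background beside it. The median log2 fold change of the 48 genes was -0.41 with BBC1115, -0.04 with OTX-015 and 0.08 with RVX-208, beside -0.25, -0.13 and 0.02 over all tested genes.

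Scaling between libraries moved the split of calls. After upper-quartile scaling, which brought the median of all genes to -0.02 for BBC1115 and 0.04 for OTX-015, 24 members were lower and 9 higher with BBC1115, beside 39.7% and 37.5% of all genes. With OTX-015, 8 were lower and 20 higher, beside 30.7% and 35.7%. The median log2 fold change of the members with OTX-015 was -0.091 without DMSO replicate 1, beside -0.132 for all genes. It was -0.102 without OTX-015 replicate 1, beside -0.192. Summed over the 48 genes, the level was 1730.1 and 1702.5 RPKM with BBC1115, 2185.0 and 1996.5 with OTX-015, 2349.9 and 2325.0 with RVX-208 and 2270.8 and 2297.5 with DMSO. The BBC1115 libraries were below every other library, the OTX-015 libraries came next, and the RVX-208 libraries were the highest.

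**Figure D1:**
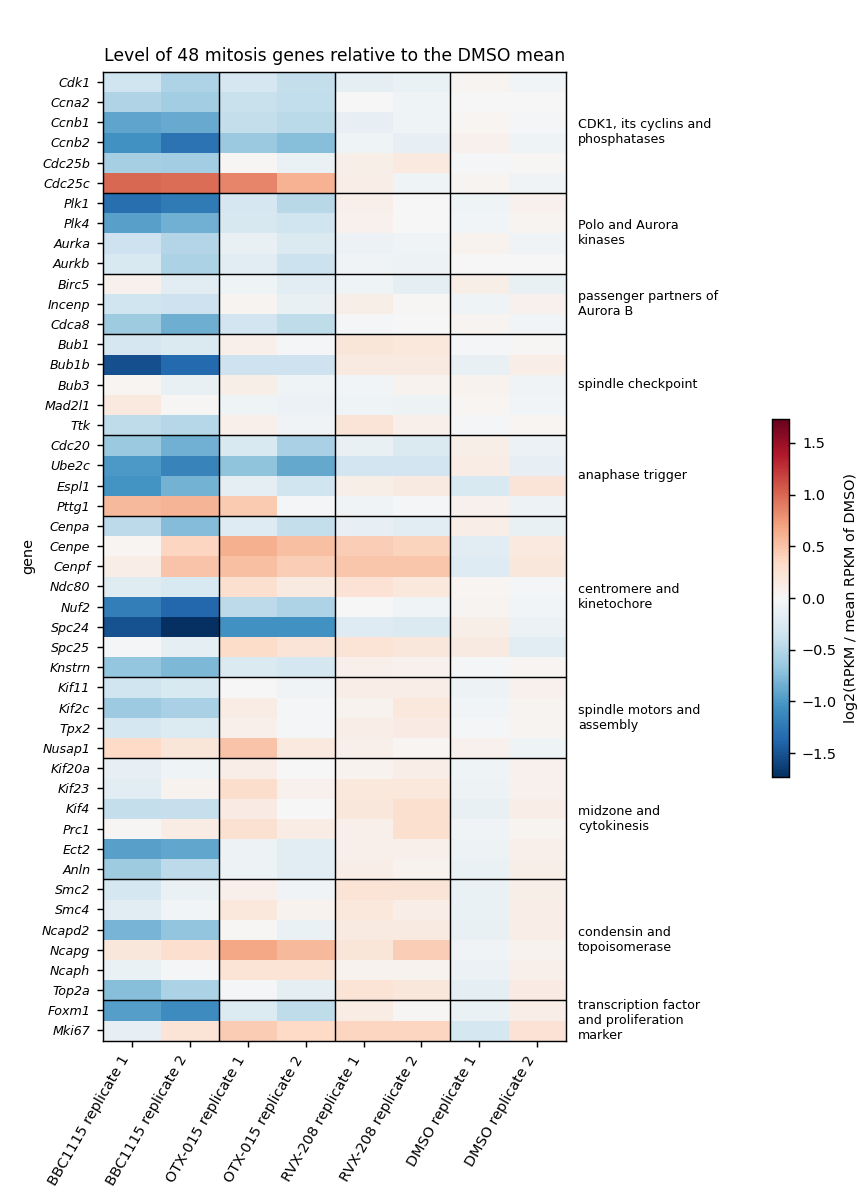
Heat map of the 48 genes (rows, in role groups) in the 8 libraries (columns), coloured by log2 of the RPKM over the mean RPKM of the DMSO libraries. Spc24, Bub1b, Plk1, Nuf2 and Ccnb2 are the deepest blue in the BBC1115 columns, Cdc25c is red in the BBC1115 and OTX-015 columns, and the RVX-208 columns stay near the DMSO ones.

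The call patterns with BBC1115 and OTX-015, which share the DMSO libraries, fell into a few classes. Both compounds called 16 genes lower, and 14 more were lower with BBC1115 and uncalled with OTX-015. Cdc25c, Ncapg and Nusap1 were higher with both. Ndc80 was the 1 gene called lower with BBC1115 and higher with OTX-015, at log2 fold changes of -0.23 and 0.21, and its BBC1115 value turned positive, to 0.021 to 0.094, under upper-quartile scaling, quantile normalization and removal of the length trend. Over 19 alternative settings and left-out libraries, 23 of the 31 lower calls and 1 of the 4 higher calls with BBC1115 held in every one, as did 6 of the 16 lower and 2 of the 9 higher calls with OTX-015. Upper-quartile scaling and quantile normalization each ended the OTX-015 calls of Aurkb, Bub1b, Cdc20, Cdk1, Cenpa, Foxm1, Knstrn and Plk4, at -0.21 to -0.03, and quantile normalization that of Plk1, at -0.14. Removal of the length trend ended the OTX-015 calls of Aurkb, Cdc20, Cdca8, Cenpa and Plk1, at -0.18 to -0.006. Without the filter on low values, the higher OTX-015 calls of Cenpe, Cenpf, Mki67, Ncaph, Nusap1 and Spc25 and the higher BBC1115 calls of Ncapg, Nusap1 and Pttg1 ended. So did the lower calls of Aurkb with BBC1115 and of Aurkb, Bub1b, Cdc20, Cenpa and Foxm1 with OTX-015.

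**Figure D2:**
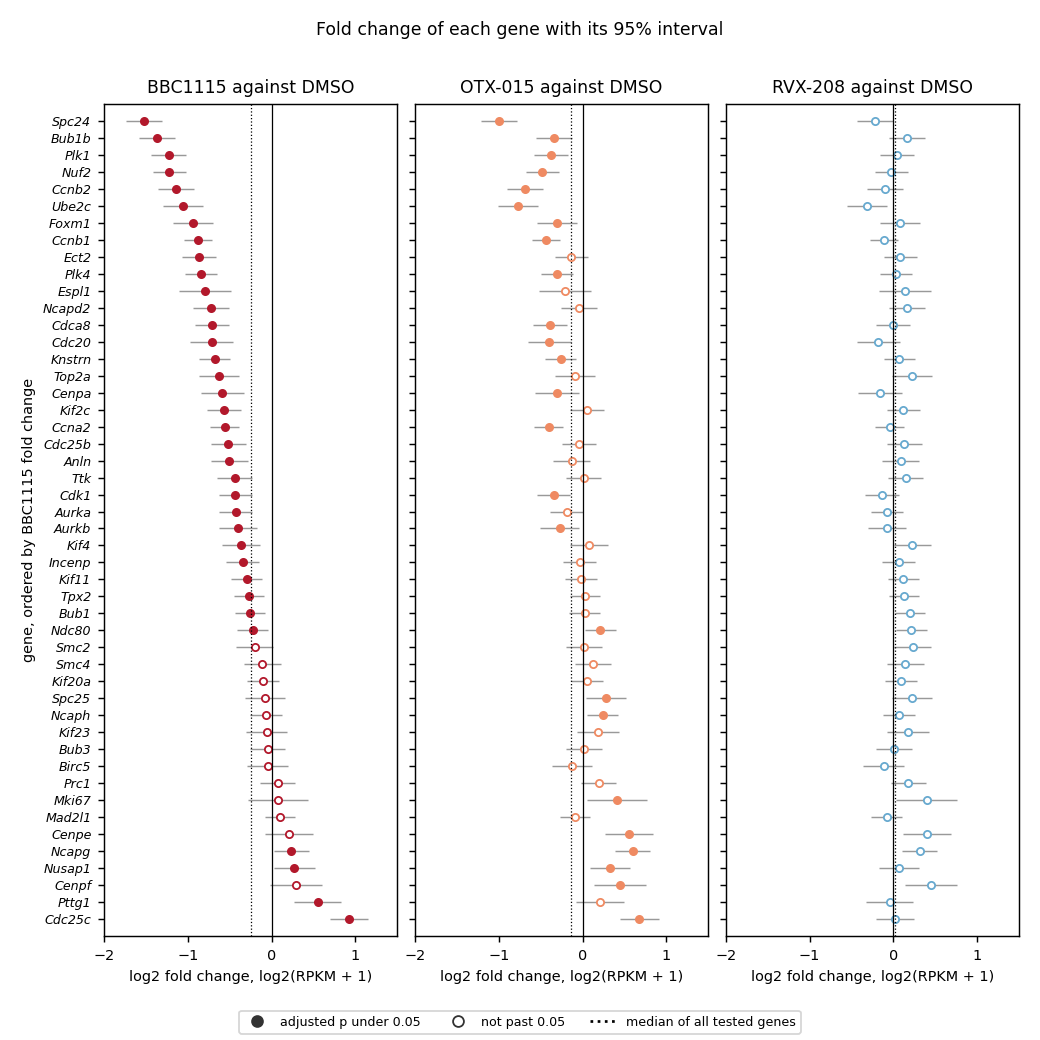
Log2 fold change against DMSO of each gene on the log2(RPKM + 1) scale, with 95% intervals from limma, for BBC1115, OTX-015 and RVX-208. Filled points passed an adjusted p of 0.05, the dotted line is the median of all 9975 tested genes, and the genes run in the order of their BBC1115 value, from Spc24 at -1.52 to Cdc25c at 0.92.

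Among CDK1, its cyclins and phosphatases, 5 of 6 fell and 1 rose with BBC1115, and 4 fell and 1 rose with OTX-015. The counts of each role group stand beside 49.3% of all tested genes lower and 26.4% higher with BBC1115. For OTX-015 these shares were 40% and 24.2%. The groups are small, and none was tested against these shares. Cdk1, the kinase that drives entry into mitosis, had 47.9 and 41.8 RPKM with BBC1115, 49.6 and 45.5 with OTX-015, 54.0 and 56.1 with RVX-208 and 62.5 and 58.9 with DMSO. Ccna2 had 71.6 and 68.0 RPKM with BBC1115, 78.9 and 76.7 with OTX-015, 102.4 and 97.8 with RVX-208 and 103.9 and 102.8 with DMSO. Ccna2 encodes cyclin A2, and for both genes the BBC1115 and the OTX-015 libraries lay below both DMSO libraries. Their log2 fold changes were -0.43 ± 0.09 (SE, adjusted p = 0.0011) and -0.56 ± 0.08 (SE, adjusted p = 4.7e-05) with BBC1115. With OTX-015 they were -0.35 ± 0.09 (SE, adjusted p = 0.0061) and -0.41 ± 0.08 (SE, adjusted p = 8.4e-04). For Cdk1, upper-quartile scaling and quantile normalization ended the OTX-015 call, within a range over all alternatives of -0.41 to -0.10. Ccna2 shares 510 bases of exon with Exosc9 on the opposite strand. The ratio of Exosc9 to DMSO was 0.649 with BBC1115 and 0.71 with OTX-015, beside 0.675 and 0.753 for Ccna2. The part of this overlap in the Ccna2 values was not tested.

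The B-type cyclins, which activate CDK1 in mitosis, fell further. Ccnb1 had 42.9 and 44.0 RPKM with BBC1115, 60.6 and 58.6 with OTX-015, 73.0 and 76.6 with RVX-208 and 82.4 and 79.3 with DMSO. Ccnb2 had 42.6 and 36.3 RPKM with BBC1115, 56.1 and 52.4 with OTX-015, 83.5 and 79.9 with RVX-208 and 92.4 and 83.2 with DMSO. In both genes the BBC1115 libraries were the lowest, the OTX-015 libraries lay between them and the rest, and neither compound overlapped DMSO. Ccnb2 was 2.23-fold lower with BBC1115 and 1.62-fold lower with OTX-015 by group means, with log2 fold changes of -1.14 ± 0.10 (SE, adjusted p = 9.7e-07) and -0.68 ± 0.10 (SE, adjusted p = 1.0e-04). Ccnb1 changed by -0.88 ± 0.08 (SE, adjusted p = 1.2e-06) with BBC1115 and -0.43 ± 0.08 (SE, adjusted p = 5.2e-04) with OTX-015. Of the 50-base words of a main Ccnb1 transcript, 42.1% also occur in other annotated genes, among them the pseudogene Ccnb1-ps, so its level is uncertain.

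The CDC25 phosphatases, which remove the inhibitory phosphates from CDK1, went opposite ways with BBC1115. Cdc25c had 21.4 and 21 RPKM with BBC1115, 19.3 and 16.3 with OTX-015, 11.6 and 10.2 with RVX-208 and 11.1 and 10.3 with DMSO. All 4 libraries given BBC1115 or OTX-015 were above all 4 given RVX-208 or DMSO. Cdc25c rose 1.98-fold with BBC1115, a log2 fold change of 0.92 ± 0.10 (SE, adjusted p = 1.0e-05), and 1.66-fold with OTX-015, at 0.68 ± 0.10 (SE, adjusted p = 2.0e-04). It shares 623 bases of exon with Gm3550 on the opposite strand, and the sources used here do not say whether reads were counted by strand. Cdc25b had 6.8 and 6.68 RPKM with BBC1115, 10.2 and 9.32 with OTX-015, 10.8 and 11.4 with RVX-208 and 9.92 and 10.2 with DMSO. It fell by 0.52 on the log2 scale with BBC1115, and its OTX-015 libraries overlapped the DMSO ones. The ratio of Cdc25c to Cdc25b, which no factor applied to a whole library can alter, was 3.15 and 3.14 with BBC1115, 1.88 and 1.75 with OTX-015, 1.07 and 0.895 with RVX-208 and 1.12 and 1.01 with DMSO.

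All 4 Polo and Aurora kinases fell with BBC1115 and 3 fell with OTX-015. Plk1 had 23.0 and 24.3 RPKM with BBC1115, 46.7 and 40.7 with OTX-015, 60.4 and 56.7 with RVX-208 and 54.0 and 59.8 with DMSO. Plk1 promotes entry into mitosis, centrosome maturation and cytokinesis, and its BBC1115 libraries were below every other library, with the OTX-015 libraries below both DMSO libraries. It was 2.41-fold lower with BBC1115, at -1.23 ± 0.09 (SE, adjusted p = 4.1e-07), and 1.3-fold lower with OTX-015, at -0.38 ± 0.09 (SE, adjusted p = 0.0048). Plk4, which starts centriole duplication, changed by -0.84 ± 0.09 (SE, adjusted p = 4.4e-06) with BBC1115.

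The Aurora kinases fell by less. Aurka had 42.7 and 38.4 RPKM with BBC1115, 50 and 46.0 with OTX-015, 51.3 and 52.5 with RVX-208 and 57.3 and 52.4 with DMSO. Aurkb had 51.2 and 42.0 RPKM with BBC1115, 54.3 and 47.3 with OTX-015, 58.8 and 57.9 with RVX-208 and 62.0 and 61.0 with DMSO. Aurora A works at the spindle poles and Aurora B at the centromere, and their BBC1115 libraries lay below both DMSO libraries. The log2 fold changes with BBC1115 were -0.43 ± 0.09 (SE, adjusted p = 0.0011) for Aurka and -0.40 ± 0.10 (SE, adjusted p = 0.0044) for Aurkb. With OTX-015 Aurkb changed by -0.27 ± 0.10 (SE, adjusted p = 0.038) and Aurka was uncalled at -0.19 ± 0.09 (SE, adjusted p = 0.084). The BBC1115 call of Aurka ended with the length trend removed, at -0.084. The Aurkb calls ended under upper-quartile scaling, quantile normalization and removal of the length trend, and over all alternatives its value ran from -0.54 to -0.05 with BBC1115 and -0.37 to -0.03 with OTX-015. Aurkb in the BBC1115 comparison was no longer called without BBC1115 replicate 2, with a log2 fold change of -0.26. Aurkb against DMSO in the OTX-015 comparison was no longer called without DMSO replicate 1 or 2 or RVX-208 replicate 1 or 2 or OTX-015 replicate 2, with log2 fold changes of -0.28 to -0.18. Plk4 in the OTX-015 comparison was no longer called without DMSO replicate 2, with a log2 fold change of -0.26.

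Of the partners that hold Aurora B at the centromere, 2 of 3 fell with BBC1115 and 1 fell with OTX-015. Cdca8 had 48.5 and 41.6 RPKM with BBC1115, 59.0 and 54.7 with OTX-015, 73.8 and 74.4 with RVX-208 and 76.8 and 72.2 with DMSO. Cdca8 encodes borealin, and its BBC1115 and OTX-015 libraries all lay below both DMSO libraries, at -0.72 ± 0.09 (SE, adjusted p = 2.7e-05) and -0.38 ± 0.09 (SE, adjusted p = 0.0036). The OTX-015 call ended with the length trend removed, at -0.11. Birc5 had 127.3 and 106.1 RPKM with BBC1115, 114.8 and 105.4 with OTX-015, 114.6 and 107.3 with RVX-208 and 130.3 and 110.9 with DMSO. Birc5 encodes survivin, the groups overlapped, and no compound passed the test, with -0.05 ± 0.11 (SE, adjusted p = 0.71) for BBC1115. Incenp, the scaffold of the complex, changed by -0.35 ± 0.09 (SE, adjusted p = 0.0043) with BBC1115, and that call ended under upper-quartile scaling, quantile normalization and removal of the length trend, in a range of -0.43 to -0.09.

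In the spindle checkpoint 1 gene moved far more than the rest. Bub1b had 13.7 and 15.5 RPKM with BBC1115, 30.8 and 30.8 with OTX-015, 44.1 and 44.0 with RVX-208 and 36.2 and 42.8 with DMSO. Bub1b encodes BUBR1, a subunit of the mitotic checkpoint complex, and its BBC1115 libraries were under the lowest of all others by a wide margin. It was 2.7-fold lower with BBC1115, at -1.37 ± 0.10 (SE, adjusted p = 2.3e-07), and 1.28-fold lower with OTX-015, at -0.34 ± 0.10 (SE, adjusted p = 0.0098). Bub1b in the OTX-015 comparison was no longer called without DMSO replicate 2, with a log2 fold change of -0.23. Bub3, its binding partner, had 83.0 and 74.1 RPKM with BBC1115 and 84.8 and 77.7 with DMSO, at -0.05 ± 0.10 (SE, adjusted p = 0.66). The ratio of Bub1b to Bub3 was 0.165 and 0.209 with BBC1115, 0.353 and 0.399 with OTX-015, 0.563 and 0.521 with RVX-208 and 0.427 and 0.551 with DMSO.

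Of the other checkpoint genes, Bub1 and Ttk fell with BBC1115 and Bub3 and Mad2l1 were uncalled. Bub1 had 22.3 and 23.0 RPKM with BBC1115, 29.0 and 26.6 with OTX-015, 31.7 and 31.0 with RVX-208 and 26.8 and 27.8 with DMSO. Ttk had 11.3 and 10.9 RPKM with BBC1115, 16.4 and 14.7 with OTX-015, 18 and 16.3 with RVX-208 and 15.1 and 15.7 with DMSO. Bub1 and Ttk, the kinases that recruit checkpoint proteins to kinetochores, were lowest in the BBC1115 libraries, at -0.26 ± 0.08 (SE, adjusted p = 0.013) and -0.44 ± 0.09 (SE, adjusted p = 0.0013). Mad2l1 had 68.7 and 62.0 RPKM with BBC1115, 57.6 and 56.8 with OTX-015, 57.8 and 57.1 with RVX-208 and 62.6 and 59.2 with DMSO. Mad2l1 encodes MAD2, which binds CDC20 while chromosomes are unattached, its BBC1115 libraries overlapped the DMSO ones, and it was uncalled at 0.10 ± 0.08 (SE, adjusted p = 0.29). The Bub1 call ended under upper-quartile scaling, quantile normalization and removal of the length trend, with values of -0.021 to -0.004. Bub1 against DMSO in the BBC1115 comparison was no longer called without DMSO replicate 2 or BBC1115 replicate 1, with log2 fold changes of -0.24 to -0.23. With OTX-015, 1 of the 5 checkpoint genes, Bub1b, was called.

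At the anaphase trigger, 3 of 4 genes fell with BBC1115 and securin rose. Cdc20 had 37.7 and 33.1 RPKM with BBC1115, 49.0 and 40 with OTX-015, 54.0 and 49.4 with RVX-208 and 62.9 and 54.7 with DMSO. Ube2c had 73.5 and 65.3 RPKM with BBC1115, 90.0 and 78.9 with OTX-015, 116.5 and 116.4 with RVX-208 and 159.1 and 132.1 with DMSO. Cdc20 activates the anaphase-promoting complex and Ube2c is a ubiquitin-conjugating enzyme that works with it, and in both genes the BBC1115 and OTX-015 libraries lay below both DMSO libraries. Ube2c was 2.1-fold lower with BBC1115, at -1.05 ± 0.11 (SE, adjusted p = 4.4e-06), and 1.72-fold lower with OTX-015, at -0.78 ± 0.11 (SE, adjusted p = 9.4e-05). Cdc20 changed by -0.72 ± 0.12 (SE, adjusted p = 1.7e-04) with BBC1115 and -0.40 ± 0.12 (SE, adjusted p = 0.011) with OTX-015. Cdc20 against DMSO in the OTX-015 comparison was no longer called without DMSO replicate 1 or OTX-015 replicate 2, with log2 fold changes of -0.30 to -0.25. Exons of Cdc20 overlap Elovl1 and those of Ube2c overlap Tnnc2, both on the opposite strand, and Tnnc2 stood at 0.74 RPKM or less in every library.

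Espl1 had 4.75 and 5.53 RPKM with BBC1115, 8.76 and 7.66 with OTX-015, 10.5 and 10.9 with RVX-208 and 8.13 and 11.4 with DMSO. Pttg1 had 29.0 and 29.6 RPKM with BBC1115, 26.9 and 19.5 with OTX-015, 18.9 and 19.2 with RVX-208 and 20.8 and 18.6 with DMSO. Espl1 encodes separase, the protease that cuts cohesin, and Pttg1 encodes securin, the inhibitor that holds separase until anaphase. Both BBC1115 libraries lay below every other library for Espl1 and above every other library for Pttg1. Separase changed by -0.80 ± 0.14 (SE, adjusted p = 3.5e-04) and securin by 0.55 ± 0.13 (SE, adjusted p = 0.0023) with BBC1115, and neither was called with OTX-015, at -0.21 ± 0.14 (SE, adjusted p = 0.21) and 0.21 ± 0.13 (SE, adjusted p = 0.18). The ratio of Pttg1 to Espl1 was 6.10 and 5.36 with BBC1115, 3.07 and 2.54 with OTX-015, 1.80 and 1.76 with RVX-208 and 2.56 and 1.63 with DMSO. Pttg1 rests on few reads, an estimated 150 in its lowest library, and its call ended without the filter on low values.

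Among centromere and kinetochore genes, 5 of 8 fell with BBC1115 and 3 were uncalled, while 4 fell and 4 rose with OTX-015. Of all tested genes, 49.3% were lower with BBC1115, and 40% were lower and 24.2% higher with OTX-015. The split of the members ran through the NDC80 complex, the rod that binds microtubules. It is built of a Ndc80 and Nuf2 pair and a Spc24 and Spc25 pair. Spc24 had 10.3 and 8.81 RPKM with BBC1115, 14.2 and 14.1 with OTX-015, 25.2 and 24.7 with RVX-208 and 31.3 and 27.4 with DMSO. Spc25 had 45.1 and 41.4 RPKM with BBC1115, 57.5 and 54.0 with OTX-015, 54.5 and 52.7 with RVX-208 and 51.5 and 40.7 with DMSO. For Spc24 the BBC1115 libraries were the lowest and the OTX-015 libraries the next, while for Spc25 the BBC1115 and DMSO libraries overlapped. Spc24 was 3.07-fold lower with BBC1115, at -1.52 ± 0.10 (SE, adjusted p = 1.3e-07), and 2.07-fold lower with OTX-015, at -1.0 ± 0.10 (SE, adjusted p = 8.4e-06), the largest fall of the 48 genes with either compound. Spc25 was uncalled with BBC1115, at -0.08 ± 0.11 (SE, adjusted p = 0.51), and rose with OTX-015, at 0.28 ± 0.11 (SE, adjusted p = 0.041).

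Nuf2 had 15.1 and 13.5 RPKM with BBC1115, 25.3 and 24.0 with OTX-015, 34.9 and 33.2 with RVX-208 and 35.8 and 33.6 with DMSO. Ndc80 had 19.5 and 18.9 RPKM with BBC1115, 27.5 and 25.2 with OTX-015, 27.0 and 25.7 with RVX-208 and 23.2 and 22 with DMSO. Nuf2 was lowest in the BBC1115 libraries and next in the OTX-015 libraries. Ndc80 was lowest in the BBC1115 libraries too, but its OTX-015 libraries lay above both DMSO libraries. Nuf2 was 2.42-fold lower with BBC1115, at -1.22 ± 0.09 (SE, adjusted p = 2.7e-07), and 1.41-fold lower with OTX-015, at -0.48 ± 0.09 (SE, adjusted p = 7.2e-04). Ndc80 changed by -0.23 ± 0.08 (SE, adjusted p = 0.031) with BBC1115, a sign that turned under the 3 rescalings named above, and by 0.21 ± 0.08 (SE, adjusted p = 0.047) with OTX-015. Ndc80 against DMSO in the BBC1115 comparison was no longer called without DMSO replicate 1 or RVX-208 replicate 1 or 2 or BBC1115 replicate 1 or 2, with log2 fold changes of -0.25 to -0.19. Ndc80 against DMSO in the OTX-015 comparison was no longer called without DMSO replicate 1 or 2 or RVX-208 replicate 1 or 2 or OTX-015 replicate 1 or BBC1115 replicate 1 or 2, with log2 fold changes of 0.15 to 0.25. Spc25 against DMSO in the OTX-015 comparison was no longer called without DMSO replicate 2 or RVX-208 replicate 1 or 2 or OTX-015 replicate 1 or 2, with log2 fold changes of 0.11 to 0.32.

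The ratios within each pair separated the compounds from DMSO whatever factor a library is scaled by. Spc24 stood to Spc25 at 0.229 and 0.213 with BBC1115, 0.247 and 0.262 with OTX-015, 0.462 and 0.470 with RVX-208 and 0.608 and 0.674 with DMSO. Nuf2 stood to Ndc80 at 0.776 and 0.714 with BBC1115, 0.919 and 0.951 with OTX-015, 1.30 and 1.29 with RVX-208 and 1.54 and 1.52 with DMSO. In both ratios the BBC1115 libraries were the lowest, the OTX-015 libraries the next, and the RVX-208 libraries also lay below the DMSO libraries without overlap. An exact permutation test of 2 against 2 libraries cannot give a p below 0.333, so these ratios are descriptions. Of the 50-base words of a main Spc24 transcript, 7.5% occur in other genes, and of Ndc80, 5.3%.

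**Figure D3:**
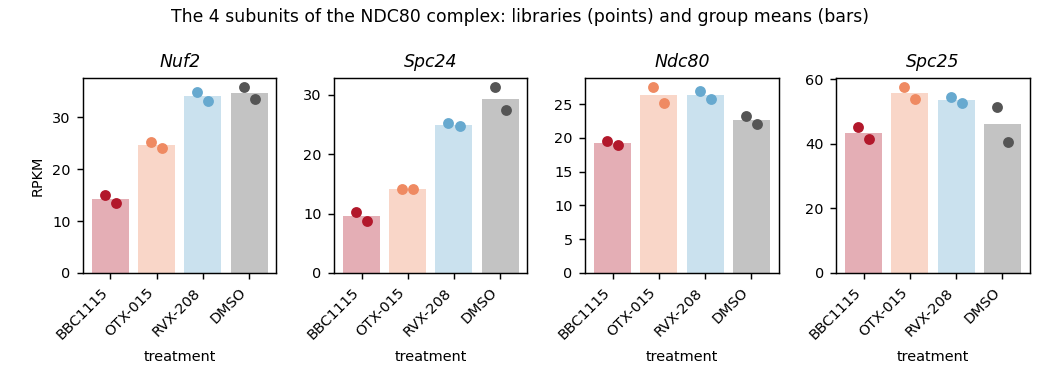
Levels in RPKM of Nuf2, Spc24, Ndc80 and Spc25, the 4 subunits of the NDC80 complex, with a point for each library and a bar for the mean of each treatment. Nuf2 and Spc24 step down with OTX-015 and further with BBC1115, whereas Ndc80 lies at 19.5 and 18.9 RPKM with BBC1115 against 23.2 and 22 with DMSO, and Spc25 with BBC1115 lies within the range of DMSO.

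Cenpa had 43.1 and 35.2 RPKM with BBC1115, 50.9 and 44.6 with OTX-015, 53.9 and 51.7 with RVX-208 and 64.5 and 54.0 with DMSO. Cenpa, the histone H3 variant that marks the centromere, was lower in both BBC1115 and both OTX-015 libraries than in either DMSO library, at -0.59 ± 0.12 (SE, adjusted p = 8.3e-04) and -0.30 ± 0.12 (SE, adjusted p = 0.041). Cenpa against DMSO in the OTX-015 comparison was no longer called without DMSO replicate 1 or RVX-208 replicate 1 or 2 or OTX-015 replicate 2, with log2 fold changes of -0.30 to -0.18. Knstrn, which helps chromosomes align, fell by 0.68 on the log2 scale with BBC1115. Cenpe had 20.1 and 25.6 RPKM with BBC1115, 30.2 and 28.4 with OTX-015, 26.4 and 25.8 with RVX-208 and 17.3 and 22.2 with DMSO. Cenpf had 9.21 and 12 RPKM with BBC1115, 12.2 and 11.5 with OTX-015, 11.9 and 11.9 with RVX-208 and 7.29 and 9.76 with DMSO. Cenpe is a kinetochore motor and Cenpf a large kinetochore protein, and they rose with OTX-015, at 0.56 ± 0.13 (SE, adjusted p = 0.0031) and 0.44 ± 0.14 (SE, adjusted p = 0.017), where both libraries lay above both DMSO libraries. With BBC1115 the libraries overlapped DMSO and neither gene was called. Cenpf against DMSO in the OTX-015 comparison was no longer called without DMSO replicate 1 or OTX-015 replicate 1 or 2, with log2 fold changes of 0.26 to 0.48. Both are long transcripts, whose level was lower in DMSO replicate 1 than in DMSO replicate 2.

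Among spindle motors and assembly factors, 3 of 4 fell and 1 rose with BBC1115. Kif2c had 15.7 and 16.4 RPKM with BBC1115, 26.6 and 23.9 with OTX-015, 25.3 and 27.7 with RVX-208 and 23.5 and 25.1 with DMSO. Kif2c, a kinesin that takes microtubules apart and so frees wrong attachments, was lowest in the BBC1115 libraries, at -0.57 ± 0.09 (SE, adjusted p = 1.6e-04), and uncalled with OTX-015, at 0.05 ± 0.09 (SE, adjusted p = 0.64). Kif11 had 35.9 and 37.9 RPKM with BBC1115, 46.0 and 43.8 with OTX-015, 49.5 and 49.4 with RVX-208 and 43.0 and 48.2 with DMSO. Nusap1 had 33.0 and 30.0 RPKM with BBC1115, 36.7 and 29.3 with OTX-015, 27.7 and 26.7 with RVX-208 and 27.3 and 24.7 with DMSO. Kif11, the motor that pushes the spindle poles apart, changed by -0.30 ± 0.08 (SE, adjusted p = 0.0078) with BBC1115, and Nusap1, which bundles spindle microtubules, rose with BBC1115 and with OTX-015, at 0.27 ± 0.11 (SE, adjusted p = 0.045) and 0.33 ± 0.11 (SE, adjusted p = 0.023). Tpx2, the activator of Aurora A on the spindle, changed by -0.27 ± 0.08 (SE, adjusted p = 0.011) with BBC1115. Kif11 against DMSO in the BBC1115 comparison was no longer called without DMSO replicate 2 or BBC1115 replicate 1, with log2 fold changes of -0.26 to -0.21. Nusap1 against DMSO in the BBC1115 comparison was no longer called without DMSO replicate 2 or RVX-208 replicate 1 or 2 or BBC1115 replicate 1, with log2 fold changes of 0.20 to 0.27. Tpx2 against DMSO in the BBC1115 comparison was no longer called without DMSO replicate 2 or BBC1115 replicate 1, with log2 fold changes of -0.24 to -0.23. Nusap1 against DMSO in the OTX-015 comparison was no longer called without DMSO replicate 2 or OTX-015 replicate 1, with log2 fold changes of 0.17 to 0.26. The calls of Kif11 and Tpx2 also ended under upper-quartile scaling and quantile normalization, in ranges of -0.38 to -0.04 and -0.31 to -0.02. Nusap1 shares exon with Oip5 on the opposite strand, and Oip5 was listed at 0 in 3 of the libraries of BBC1115 and OTX-015.

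Of 6 genes of the midzone and cytokinesis, 3 fell with BBC1115 and 3 were uncalled, near the 49.3% of all tested genes that were lower. Ect2 had 12.6 and 12.9 RPKM with BBC1115, 22.6 and 21 with OTX-015, 25.5 and 25.5 with RVX-208 and 22.6 and 25.6 with DMSO. Ect2, which activates RhoA at the cleavage furrow, was 1.89-fold lower with BBC1115, at -0.87 ± 0.09 (SE, adjusted p = 5.0e-06), and both its BBC1115 libraries lay below every other library. Anln, the ring scaffold anillin, and Kif4, a chromosome kinesin, changed by -0.51 ± 0.10 (SE, adjusted p = 7.6e-04) and -0.37 ± 0.10 (SE, adjusted p = 0.0066). The Kif4 call ended without DMSO replicate 2, at -0.26, and under upper-quartile scaling and quantile normalization, at -0.13 and -0.11. Kif20a, Kif23 and Prc1, which build the central spindle, were uncalled with BBC1115, between -0.10 and 0.07. Exons of Kif20a overlap Cdc23 by 1271 bases, those of Prc1 overlap Rccd1 by 911 and those of Kif4 overlap Pdzd11 by 832. All of these partners lie on the opposite strand. With OTX-015 limma called 0 of the 6, and 0 at an unadjusted p under 0.05, with values from -0.13 to 0.19, but up to 4 were higher under an alternative.

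For condensin and topoisomerase II, 2 of 6 genes fell and 1 rose with BBC1115, and 2 rose with OTX-015. The lower share with BBC1115 was under the 49.3% of all tested genes. Ncapd2 had 34.6 and 37.5 RPKM with BBC1115, 61.2 and 55.9 with OTX-015, 67.3 and 67.2 with RVX-208 and 55.2 and 65.4 with DMSO. Ncapg had 35.2 and 37.3 RPKM with BBC1115, 48.6 and 45.1 with OTX-015, 35.5 and 41.3 with RVX-208 and 29.4 and 31.8 with DMSO. Ncapd2 and Ncapg are the HEAT-repeat subunits of condensin I, and their order differed: Ncapd2 was lowest with BBC1115, whereas Ncapg was lowest in the DMSO libraries. Ncapd2 changed by -0.72 ± 0.10 (SE, adjusted p = 3.9e-05) with BBC1115 and was uncalled with OTX-015, at -0.04 ± 0.10 (SE, adjusted p = 0.75). Ncapg rose by 0.24 ± 0.09 (SE, adjusted p = 0.041) with BBC1115 and by 0.60 ± 0.09 (SE, adjusted p = 2.4e-04) with OTX-015. Ncapg against DMSO in the BBC1115 comparison was no longer called without DMSO replicate 1 or RVX-208 replicate 1 or 2 or BBC1115 replicate 1 or 2, with log2 fold changes of 0.18 to 0.28. Ncapd2 stood to Ncapg at 0.984 and 1.01 with BBC1115, 1.26 and 1.24 with OTX-015, 1.90 and 1.63 with RVX-208 and 1.88 and 2.06 with DMSO. Ncapg shares 944 bases of exon with Lcorl on the opposite strand. Lcorl had 4.5 and 4.68 RPKM with BBC1115, 0 and 0 with OTX-015, 4.49 and 0 with RVX-208 and 4.01 and 3.56 with DMSO. The libraries with Lcorl at 0 had the highest Ncapg levels. The part of this overlap in the Ncapg values and in the ratio was not tested.

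Smc4 had 99.9 and 109.6 RPKM with BBC1115, 128.8 and 117.4 with OTX-015, 127.8 and 121.9 with RVX-208 and 104.6 and 122.0 with DMSO. Top2a had 72.7 and 82.9 RPKM with BBC1115, 118.3 and 108.3 with OTX-015, 142.2 and 138.2 with RVX-208 and 108.6 and 133.2 with DMSO. Smc4 is an ATPase of condensin, and its BBC1115 libraries overlapped the DMSO ones and lay below all OTX-015 and RVX-208 libraries. It was uncalled against DMSO, at -0.11 ± 0.10 (SE, adjusted p = 0.33) with BBC1115, and called lower with BBC1115 than with RVX-208, at -0.25 ± 0.10 (SE, adjusted p = 0.037), a call that ended under upper-quartile scaling and quantile normalization and, at 0.015, with the length trend removed. Top2a, the enzyme that untangles sister DNA, was lowest in the BBC1115 libraries and fell by 0.63 on the log2 scale (SE 0.11, adjusted p = 2.9e-04), while the DMSO libraries lay on both sides of an OTX-015 library, at -0.09 ± 0.11 (SE, adjusted p = 0.5). Smc2 and Ncaph were uncalled with BBC1115, and Ncaph rose with OTX-015, at 0.24 ± 0.09 (SE, adjusted p = 0.029). Ncaph against DMSO in the OTX-015 comparison was no longer called without DMSO replicate 1 or RVX-208 replicate 1 or 2 or OTX-015 replicate 1 or 2, with log2 fold changes of 0.15 to 0.24.

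Foxm1 had 9.03 and 8.21 RPKM with BBC1115, 14.9 and 12.9 with OTX-015, 19.1 and 17.8 with RVX-208 and 16.1 and 18.9 with DMSO. Foxm1, a transcription factor that works with the MuvB complex on late cell cycle genes, was 2.03-fold lower with BBC1115, at -0.94 ± 0.11 (SE, adjusted p = 1.3e-05), and changed by -0.31 ± 0.11 (SE, adjusted p = 0.029) with OTX-015. Both compounds' libraries lay below both DMSO libraries. Mki67 had 61.3 and 79.9 RPKM with BBC1115, 91.7 and 85.7 with OTX-015, 87.7 and 87.1 with RVX-208 and 54.5 and 80.5 with DMSO. Mki67, the proliferation marker Ki-67, overlapped DMSO with BBC1115, at 0.08 ± 0.16 (SE, adjusted p = 0.67), and rose with OTX-015, at 0.42 ± 0.16 (SE, adjusted p = 0.044). Foxm1 against DMSO in the OTX-015 comparison was no longer called without DMSO replicate 2 or OTX-015 replicate 2, with log2 fold changes of -0.21 to -0.20. Mki67 against DMSO in the OTX-015 comparison was no longer called without DMSO replicate 1 or OTX-015 replicate 1 or 2, with log2 fold changes of 0.14 to 0.46. The DMSO libraries of Mki67 differed widely from each other, as did those of other long transcripts.

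Set directly against each other, BBC1115 gave lower levels than OTX-015 for 30 of 48 genes, or 62.5%, beside 29.7% of all tested genes. Limma called 0 members higher, beside 14.2% of all genes, and 3 at an unadjusted p under 0.05, for which the share of all genes was not counted. The median difference was -0.32 over the 48 genes and -0.09 over all genes. Members were called lower in each role group, among them 6 of 8 for the kinetochore, 3 of 4 for the Polo and Aurora kinases and 1 of 2 for the Foxm1 and Mki67 pair. Bub1b differed most, at -1.03 ± 0.10 (SE, adjusted p = 2.1e-05), followed by Plk1 at -0.86 ± 0.09 (SE, adjusted p = 5.8e-05), Nuf2 at -0.74 ± 0.09 (SE, adjusted p = 9.4e-05), Ect2 at -0.73 ± 0.09 (SE, adjusted p = 1.2e-04) and Ncapd2 at -0.68 ± 0.10 (SE, adjusted p = 2.9e-04). Without OTX-015 replicate 1 the median difference was -0.283 over the 48 genes and -0.037 over all genes. Of the 30 calls, 16 held in each of the 19 alternatives.

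Other members that moved with both compounds did not pass the test between them. Ube2c and Ccna2 were uncalled between BBC1115 and OTX-015, at -0.28 ± 0.11 (SE, adjusted p = 0.056) with a 95% interval of -0.52 to -0.04 and -0.16 ± 0.08 (SE, adjusted p = 0.12) with an interval of -0.32 to 0.01. Cdc25c and Pttg1, the members that rose most with BBC1115, were uncalled too, at 0.25 ± 0.10 (SE, adjusted p = 0.078) and 0.34 ± 0.13 (SE, adjusted p = 0.0502). Since doses are unknown, these values describe the libraries and not the potency of a compound.

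With RVX-208 no mitosis gene passed the test. The log2 fold changes ran from -0.31 for Ube2c to 0.45 for Cenpf, and across the 48 intervals the lowest bound was -0.55, for Ube2c, and the highest 0.76, for Cenpf. Plk1 had an interval of -0.17 to 0.25, Ccnb2 of -0.31 to 0.11 and Bub1b of -0.06 to 0.37, none of which holds the BBC1115 value of that gene. Without DMSO replicate 2, the median log2 fold change with RVX-208 was 0.152 for the members, beside 0.024 for all tested genes. Without DMSO replicate 1 it was 0.035, beside 0.005. Against OTX-015, RVX-208 gave 13 members higher, or 27.1%, beside 38.1% of all genes, and 2 lower, or 4.17%, beside 17.6%. Against RVX-208, BBC1115 gave 34 members lower, or 70.8%, beside 49.6% of all genes, and 2 higher, or 4.17%, beside 23.9%.

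Transcript length moved with the difference between replicates, and this touches the long members. Over the 48 genes, log2 of replicate 1 over replicate 2 had a Spearman correlation with transcript length of -0.68 in the BBC1115 pair, -0.23 in the OTX-015 pair, -0.19 in the RVX-208 pair and -0.84 in the DMSO pair. In the DMSO pair, replicate 1 was lower for the 7 members over 5000 bases, at a median of -0.36, and higher for the 12 under 2000 bases, at 0.18. Across the 9738 tested genes with a length, the DMSO value was -0.66, so the pattern was not particular to mitosis. The RVX-208 fold changes against DMSO correlated with length at 0.63 over the members, those of OTX-015 at 0.29 and those of BBC1115 at 0.15. Genes within a library share its depth and preparation, so no p is given. With the length trend removed, 25 members were lower and 12 higher with BBC1115, beside 40.2% and 40.7% of all genes. For OTX-015, 12 were lower and 18 higher, beside 35.3% and 36.2%.

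**Figure D4:**
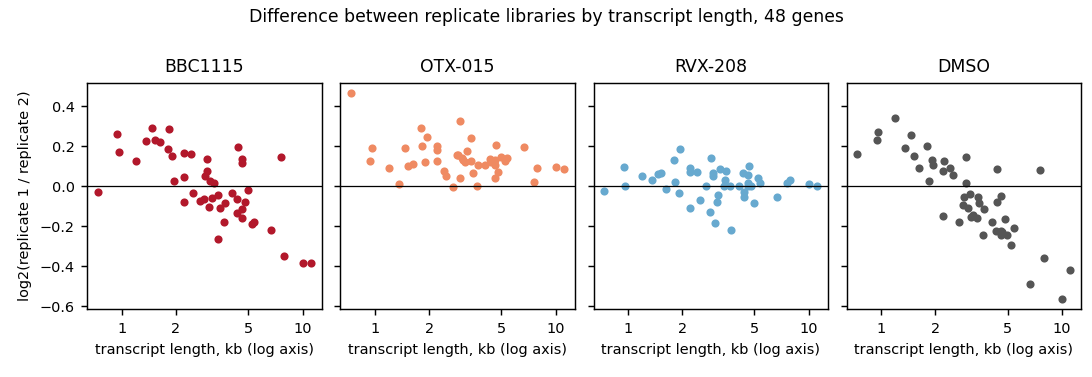
For each treatment, log2 of the RPKM of replicate 1 over replicate 2 for the 48 genes against transcript length in kilobases, on a log axis. Long transcripts lie below 0 and short ones above it in the BBC1115 and DMSO pairs, while the OTX-015 and RVX-208 pairs are flatter.

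Promoters of late cell cycle genes are known for the CHR element, bound by the MuvB complex, and for CCAAT boxes, bound by NF-Y. The 250 bases before the start were read from RefSeq promoters on GRCm38.p6 for the 39 members matched and for 7828 tested genes, and searched on both strands for TTTGAA, the core of the CHR, and for CCAAT. No limit was set on the distance between the RefSeq start and that of a main GENCODE transcript. It was 3867 bases for Kif2c, which held TTTGAA, 328 for Kif4, 270 for Pttg1 and 169 or less for the other matched members. The CHR letters were in 14 of 39 member promoters, or 35.9%, against 10.1% of all tested genes, and CCAAT was in 28, or 71.8%, against 37.8%. At least 2 copies of CCAAT were in 46.2% of member promoters, against 14.7%. Among the 25 matched members that were lower with BBC1115, 10 held TTTGAA, or 40%, against 3 of 11 uncalled members, or 27.3%, and 1 of 3 higher members. CCAAT was in 76% of the lower, 72.7% of the uncalled and 33.3% of the higher members. At least 2 copies of CCAAT were in 56%, 36.4% and 0% of them. These differences rest on few promoters and were not tested. The E-box CACGTG was in 4 of 39, or 10.3%, against 8.87%. A match describes letters and not a bound site. From a list of candidate genes, promoters were printed where no annotated exon lay in the 250 bases. Those of Ube2c, Plk1, Ndc80, Ncapg and Ncapd2 were left out for an exon there. The promoters printed are those of 4 genes that fell with BBC1115 and of Spc25, which did not pass the test. Each runs 5′ to 3′ on the strand of its gene, and capitals mark CCAAT or TTTGAA or the reverse complement of either.
Ccnb2, chr9:70421555-70421804, minus strand: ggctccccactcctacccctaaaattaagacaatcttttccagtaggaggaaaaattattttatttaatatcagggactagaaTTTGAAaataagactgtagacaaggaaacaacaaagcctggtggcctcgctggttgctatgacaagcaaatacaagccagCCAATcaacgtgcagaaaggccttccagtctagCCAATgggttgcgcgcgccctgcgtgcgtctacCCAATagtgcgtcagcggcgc
Top2a, chr11:99024190-99024439, minus strand: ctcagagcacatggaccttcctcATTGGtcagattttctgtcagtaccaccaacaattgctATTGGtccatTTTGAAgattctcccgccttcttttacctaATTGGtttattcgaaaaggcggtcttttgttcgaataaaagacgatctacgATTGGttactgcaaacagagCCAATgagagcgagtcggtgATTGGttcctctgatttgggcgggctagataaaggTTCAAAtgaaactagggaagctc
Bub1b, chr2:118597961-118598210, plus strand: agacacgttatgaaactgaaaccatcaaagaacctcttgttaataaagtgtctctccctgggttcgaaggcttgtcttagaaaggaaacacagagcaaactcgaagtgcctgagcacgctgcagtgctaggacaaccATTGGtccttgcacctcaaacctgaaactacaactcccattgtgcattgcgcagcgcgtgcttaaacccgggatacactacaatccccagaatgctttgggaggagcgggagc
Spc25, chr2:69206214-69206463, minus strand: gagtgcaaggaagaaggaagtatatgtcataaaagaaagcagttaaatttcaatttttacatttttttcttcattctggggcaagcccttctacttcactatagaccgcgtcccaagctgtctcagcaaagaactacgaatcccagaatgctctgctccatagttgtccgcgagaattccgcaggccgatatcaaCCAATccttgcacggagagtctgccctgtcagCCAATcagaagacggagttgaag
Nuf2, chr1:169531465-169531714, minus strand: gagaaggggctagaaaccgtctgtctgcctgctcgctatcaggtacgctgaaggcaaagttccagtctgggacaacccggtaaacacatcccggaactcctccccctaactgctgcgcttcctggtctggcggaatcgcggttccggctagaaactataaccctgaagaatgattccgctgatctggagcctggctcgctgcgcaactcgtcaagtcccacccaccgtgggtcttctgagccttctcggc
Ccnb2 and Top2a hold both elements, Bub1b and Spc25 hold CCAAT without TTTGAA, and Nuf2 holds neither, while Ccnb2, Top2a, Bub1b and Nuf2 fell and Spc25 was uncalled with BBC1115.

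Other genes of the same processes, from lists outside the 48, were set beside them, and beside all tested genes, of which 49.3% were lower and 26.4% higher with BBC1115, and 40% lower and 24.2% higher with OTX-015. Of 16 cohesin genes, 8 were lower and 3 higher with BBC1115, and 3 lower and 4 higher with OTX-015, with median log2 fold changes of -0.27 and -0.11. These were 50% lower and 18.8% higher with BBC1115, and 18.8% lower and 25% higher with OTX-015, so the lower share with BBC1115 and the higher share with OTX-015 were at the background. Stag2 averaged 25.9 ± 0.934 RPKM with BBC1115, 38.7 ± 1.78 with OTX-015, 50 ± 1.74 with RVX-208 and 45.3 ± 4.61 with DMSO (SD, n = 2 each). Stag2, a subunit of the cohesin ring, was lower with BBC1115, at -0.78 ± 0.09 (SE, adjusted p = 1.2e-05), and Esco1 averaged 17.8 ± 0.202 RPKM with BBC1115, 16.0 ± 0.441 with OTX-015, 11.4 ± 0.155 with RVX-208 and 10.2 ± 0.294 with DMSO (SD, n = 2 each). Esco1, an acetyltransferase of cohesin, rose with both, at 0.75 ± 0.09 (SE, adjusted p = 1.0e-05) and 0.60 ± 0.09 (SE, adjusted p = 1.1e-04). Of the 3 remaining condensin subunits, 2 were lower with BBC1115 and 1 was lower with OTX-015, and Ncaph2 of condensin II changed by -0.55 ± 0.08 (SE, adjusted p = 1.1e-04) with BBC1115. Over the alternatives the cohesin counts with BBC1115 ran from 6 to 9 lower and from 2 to 6 higher, and those with OTX-015 from 0 to 5 lower and from 2 to 7 higher.

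Of 17 subunits and regulators of the anaphase-promoting complex, 12 (70.6%) were lower and 3 (17.6%) higher with BBC1115, and 9 (52.9%) lower and 2 (11.8%) higher with OTX-015, with medians of -0.56 for BBC1115 and -0.30 for OTX-015. Cdc26 averaged 9.61 ± 1.92 RPKM with BBC1115, 22.1 ± 1.02 with OTX-015, 55.9 ± 1.94 with RVX-208 and 64.1 ± 8.62 with DMSO (SD, n = 2 each). Cdc16 averaged 6.63 ± 0.315 RPKM with BBC1115, 13.6 ± 1.96 with OTX-015, 23.1 ± 0.209 with RVX-208 and 23.5 ± 0.926 with DMSO (SD, n = 2 each). Cdc26 and Cdc16 are core subunits, and both fell with BBC1115, at -2.62 ± 0.13 (SE, adjusted p = 1.3e-08) and -1.69 ± 0.10 (SE, adjusted p = 8.0e-08), and with OTX-015, at -1.49 ± 0.13 (SE, adjusted p = 2.5e-06) and -0.76 ± 0.10 (SE, adjusted p = 8.6e-05). Anapc16 averaged 44.3 ± 2.84 RPKM with BBC1115, 35.3 ± 6.54 with OTX-015, 24.3 ± 2.08 with RVX-208 and 26.0 ± 2.0 with DMSO (SD, n = 2 each). Anapc16 rose with BBC1115, at 0.75 ± 0.12 (SE, adjusted p = 1.9e-04). Over the alternatives, 10 to 12 genes of this list were lower with BBC1115 and 6 to 9 with OTX-015.

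Of 34 other centromere and kinetochore genes tested, 18 (52.9%) were lower and 5 (14.7%) higher with BBC1115, and 9 (26.5%) lower and 7 (20.6%) higher with OTX-015. The lower share was near the background with BBC1115 and under it with OTX-015. Pmf1 averaged 30.5 ± 2.04 RPKM with BBC1115, 43.6 ± 5.98 with OTX-015, 66 ± 0.873 with RVX-208 and 82.6 ± 7.91 with DMSO (SD, n = 2 each). Pmf1, a subunit of the MIS12 complex, fell with both, at -1.41 ± 0.11 (SE, adjusted p = 4.0e-07) and -0.91 ± 0.11 (SE, adjusted p = 2.7e-05). Mis12 averaged 39.3 ± 1.41 RPKM with BBC1115, 30.7 ± 2.08 with OTX-015, 26.4 ± 1.07 with RVX-208 and 24.3 ± 0.643 with DMSO (SD, n = 2 each). Mis12, which gives that complex its name, rose with BBC1115 at 0.67 ± 0.08 (SE, adjusted p = 2.4e-05). Lower counts with BBC1115 ran from 10 to 19 over the alternatives, and higher counts from 4 to 12. With OTX-015, 4 to 11 were lower and 3 to 15 higher.

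Of 16 other kinases, phosphatases and cyclins of mitotic entry, 10 (62.5%) were lower and 2 (12.5%) higher with BBC1115, and 8 (50%) lower and 3 (18.8%) higher with OTX-015. Over the alternatives, 7 to 10 were lower with BBC1115 and 5 to 9 with OTX-015. Wee1 averaged 5.29 ± 0.563 RPKM with BBC1115, 8.64 ± 0.176 with OTX-015, 17.0 ± 0.996 with RVX-208 and 19.7 ± 0.519 with DMSO (SD, n = 2 each). Wee1, the kinase that holds CDK1 inactive, fell with both, at -1.72 ± 0.10 (SE, adjusted p = 4.3e-08) and -1.10 ± 0.10 (SE, adjusted p = 3.5e-06). Mastl averaged 7.55 ± 0.0525 RPKM with BBC1115, 6.66 ± 0.618 with OTX-015, 5.43 ± 0.207 with RVX-208 and 4.65 ± 0.478 with DMSO (SD, n = 2 each). Mastl, the Greatwall kinase, rose with both, at 0.60 ± 0.11 (SE, adjusted p = 3.6e-04) and 0.44 ± 0.11 (SE, adjusted p = 0.0041). Of 33 other spindle, centrosome and cytokinesis genes, 17 (51.5%) were lower and 5 (15.2%) higher with BBC1115, and 4 (12.1%) lower and 7 (21.2%) higher with OTX-015. The lower share with BBC1115 was near the background, and the counts moved far over the alternatives, with 9 to 18 lower and 3 to 14 higher with BBC1115, and 1 to 7 lower and 5 to 18 higher with OTX-015. Psrc1 averaged 1.67 ± 0.229 RPKM with BBC1115, 2.78 ± 0.284 with OTX-015, 6.11 ± 0.427 with RVX-208 and 7.22 ± 0.484 with DMSO (SD, n = 2 each). Psrc1, a microtubule-associated protein, fell with both compounds, at -1.62 ± 0.12 (SE, adjusted p = 2.4e-07) and -1.12 ± 0.12 (SE, adjusted p = 1.0e-05), and Spag5, or astrin, rose with both, at 0.92 ± 0.09 (SE, adjusted p = 3.4e-06) and 0.77 ± 0.09 (SE, adjusted p = 2.9e-05). With RVX-208, limma called 0 genes of these 2 lists. At an unadjusted p under 0.05 they held 0 and 10 higher genes, and the share of all genes at that threshold was not counted.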

How the data were processed

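Polyadenylated RNA was sequenced in 8 libraries of RN2 cells, 2 a group, after extraction with Qiazol and a directional NEXTflex library kit, per the labels' protocols. The authors deposited RPKM for 20484 genes in 8 columns, and 0 columns were left out. STAR, Cufflinks and mm10 are named in the submitters' processing notes, without versions or roles, and neither the gene annotation nor the strand setting of the counting is given. RPKM depends on the transcript length assumed and on the total of each library, and no further scaling is stated. The RPKM totals ran from 375973 to 467673, and depth was estimated from the lowest values of single-transcript genes, whose RPKM is that of 1 read.

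Genes with at least 1 RPKM in at least 2 libraries stayed in the tests, which left 9975. Limma 3.58.1 (R 4.3.3) fitted group means of log2(RPKM + 1) over all 8 libraries with a trended variance, on 4 residual and 6.81 prior degrees of freedom, after the fit was tested on simulated data. Two-sided p-values had a Benjamini-Hochberg adjustment across the tested genes within each of 6 contrasts, with a threshold of 0.05. Folds are ratios of mean RPKM, and the pseudocount of 1 makes log2 fold changes of low genes too small. The spread is an SD of 2 libraries or the SE of the fit, and intervals are 95% intervals of the fit. Alternatives were another pseudocount, other filters, 3 scalings between libraries, the replicate block, no variance trend, a fit of only the groups compared, each library left out and a fold threshold, and later removal of a lowess trend on transcript length and leaving out a pair of libraries.

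The members, the role groups and the other lists were chosen with earlier results of these data known, so their counts are descriptions. Values in every library are given for 25 genes fixed as a panel and for the called member of each role group with the largest change in each direction. From other lists, up to 3 called genes per direction with a group mean of at least 5 RPKM could be named. Nuf2, Spc25 and the ratios of partner genes were added after their values were seen. Lengths, exon overlaps and shared 50-base words came from GENCODE M21 on GRCm38, the assembly that mm10 names, and promoters from RefSeq on GRCm38.p6, in which 39 of 48 members were matched. Exons of 16 members overlap those of another gene, for 11 of them a protein-coding gene on the opposite strand.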

Additional observations from a re-analysis of the deposited data

How the results depend on the processing

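Counts are of the 48 genes, with the count in the report given after "in place of". The lower count for BBC1115 against DMSO, 31, stayed within 1.5 times under every alternative, at 21 to 31. The share of all genes called lower moved further, from 49.3% in the main fit to 38.1% beside the 21 with the fold threshold. It was 23.7% beside the 30 lower without the filter on low values. Without the filter on low values, there were 1 higher for BBC1115 against DMSO in place of 4, 3 higher for OTX-015 against DMSO in place of 9, 19 lower for BBC1115 against OTX-015 in place of 30 and 1 lower for RVX-208 against OTX-015 in place of 2. The shares of all genes in that order were 13.1%, 9.5%, 9.75% and 6.49%. With upper-quartile scaling, there were 9 higher for BBC1115 against DMSO in place of 4, 8 lower for OTX-015 against DMSO in place of 16, 20 higher for OTX-015 against DMSO in place of 9, 3 higher for BBC1115 against OTX-015 in place of 0, 5 lower for RVX-208 against OTX-015 in place of 2 and 5 higher for BBC1115 against RVX-208 in place of 2. Of all genes, the shares in that order were 37.5%, 30.7%, 35.7%, 21.3%, 28.2% and 34.2%. With quantile normalization, there were 9 higher for BBC1115 against DMSO in place of 4, 7 lower for OTX-015 against DMSO in place of 16, 23 higher for OTX-015 against DMSO in place of 9, 2 higher for BBC1115 against OTX-015 in place of 0, 11 lower for RVX-208 against OTX-015 in place of 2 and 4 higher for BBC1115 against RVX-208 in place of 2. In the same order, 39.0%, 32.0%, 36.5%, 22.7%, 31.8% and 37.5% of all genes were called. Without the variance trend, there were 2 higher for BBC1115 against DMSO in place of 4, beside 26.1% of all genes. With the length trend removed, an alternative chosen after seeing the data, there were 12 higher for BBC1115 against DMSO in place of 4, 18 higher for OTX-015 against DMSO in place of 9, 2 higher for RVX-208 against DMSO in place of 0, 2 higher for BBC1115 against OTX-015 in place of 0, 10 lower for RVX-208 against OTX-015 in place of 2 and 8 higher for BBC1115 against RVX-208 in place of 2. Beside these counts stood 40.7%, 36.2%, 1.55%, 30.9%, 33.3% and 39.8% of all genes, in that order. Leaving out both DMSO replicate 1 and BBC1115 replicate 1 was also chosen after seeing the data. The median log2 fold change of the members was then -0.476 for BBC1115 against DMSO, beside -0.271 for all genes. For OTX-015 against DMSO it was -0.091, beside -0.132. With a log2 fold change of at least 0.5 required as well, there were 2 higher for BBC1115 against DMSO in place of 4, 3 lower for OTX-015 against DMSO in place of 16, 3 higher for OTX-015 against DMSO in place of 9, 11 lower for BBC1115 against OTX-015 in place of 30, 1 lower for RVX-208 against OTX-015 in place of 2, 3 higher for RVX-208 against OTX-015 in place of 13 and 22 lower for BBC1115 against RVX-208 in place of 34. All genes gave 18.5%, 26.1%, 14.3%, 15.7%, 8.96%, 22.8% and 37.5% in that order. With each library scaled to the same sum, there were 9 lower for OTX-015 against DMSO in place of 16, 14 higher for OTX-015 against DMSO in place of 9 and 4 lower for RVX-208 against OTX-015 in place of 2. With a mean of at least 1 RPKM as the filter, there were 1 higher for BBC1115 against OTX-015 in place of 0, beside 13.8% of all genes. With the replicate block, there were 2 higher for BBC1115 against OTX-015 in place of 0 and 4 higher for BBC1115 against RVX-208 in place of 2. Beside these, 16.2% and 24.9% of all genes were called. With only the groups compared in the fit, there were 1 higher for BBC1115 against OTX-015 in place of 0, beside 14.1% of all genes. Leaving out each library in turn gave 27 to 31 lower and 2 to 6 higher for BBC1115 against DMSO, 11 to 16 lower and 3 to 8 higher for OTX-015 against DMSO, 0 to 1 lower and 0 to 3 higher for RVX-208 against DMSO, 18 to 34 lower and 0 to 2 higher for BBC1115 against OTX-015, 1 to 4 lower and 9 to 15 higher for RVX-208 against OTX-015 and 30 to 35 lower and 2 to 3 higher for BBC1115 against RVX-208. Changes of sign are listed only for genes called in the main fit or under the alternative. Those of genes uncalled in both are not listed. By this rule the log2 fold change changed sign with quantile normalization in Birc5 (0.18), Incenp (0.21), Mad2l1 (0.15), Kif11 (0.21) and Rad21 (0.15) for OTX-015 against DMSO, Bub3 (0.15), Ndc80 (0.047) and Pkmyt1 (0.25) for BBC1115 against DMSO and Birc5 (-0.19), Mad2l1 (-0.18) and Ndc80 (-0.17) for RVX-208 against OTX-015. By the same rule it changed sign with the length trend removed in Birc5 (0.23) for OTX-015 against DMSO, Birc5 (0.32), Bub3 (0.27), Ndc80 (0.094), Spc25 (0.31), Kif20a (0.15), Ncaph (0.22) and Pkmyt1 (0.32) for BBC1115 against DMSO, Birc5 (-0.20) and Ndc80 (-0.17) for RVX-208 against OTX-015 and Bub3 (0.24), Prc1 (0.18), Smc4 (0.015) and Ncapg (0.20) for BBC1115 against RVX-208. With upper-quartile scaling the changes of sign by that rule were in Bub3 (0.21), Ndc80 (0.021) and Pkmyt1 (0.24) for BBC1115 against DMSO. The cause of these changes was not tested.

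The labels number the replicates 1 and 2 in every group. Deviations of same-numbered libraries from their group means correlated at 0.524 between DMSO and BBC1115 and between -0.084 and 0.055 in the other pairs. Same-numbered libraries of DMSO and BBC1115 thus shared part of their deviation, and those of the other pairs of groups shared little. The source of the shared part was not tested. With the replicate block the counts were 31 lower and 4 higher for BBC1115 against DMSO and 17 lower and 9 higher for OTX-015 against DMSO. The shares of all genes were 50.2% and 27.1% for BBC1115 and 41.8% and 25.2% for OTX-015. The table holds no counts, so a count test could not be run, and 2 libraries a group limit every interval. Depth limits the members with few reads most, with an estimated 150 reads for Pttg1, 180 for Spc24 and 240 for Cdc25c in their lowest libraries.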

Other observations

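Some factors known to act on late cell cycle promoters were among the called genes. Of 23 genes of the MuvB complex, the MYB proteins, the E2F and DP factors and NF-Y, 14 (60.9%) were lower and 4 (17.4%) higher with BBC1115, and 11 (47.8%) lower and 6 (26.1%) higher with OTX-015, beside 49.3% and 26.4% of all tested genes with BBC1115 and 40% and 24.2% with OTX-015, with median log2 fold changes of -0.54 and -0.21. Mybl2 averaged 11.3 ± 0.613 RPKM with BBC1115, 12.6 ± 0.522 with OTX-015, 24.8 ± 0.623 with RVX-208 and 28.7 ± 1.71 with DMSO (SD, n = 2 each). Mybl2, or B-MYB, which joins MuvB at late cell cycle genes, fell with both compounds, at -1.27 ± 0.09 (SE, adjusted p = 2.1e-07) and -1.12 ± 0.09 (SE, adjusted p = 1.5e-06). Tfdp1 averaged 64.4 ± 1.45 RPKM with BBC1115, 80.4 ± 2.76 with OTX-015, 139.0 ± 0.494 with RVX-208 and 158.0 ± 2.16 with DMSO (SD, n = 2 each). Tfdp1, the DNA-binding partner of the E2F factors, changed by -1.28 ± 0.08 (SE, adjusted p = 6.2e-08) and -0.96 ± 0.08 (SE, adjusted p = 1.5e-06). Nfya averaged 62.1 ± 3.4 RPKM with BBC1115, 44.3 ± 2.39 with OTX-015, 30.4 ± 1.16 with RVX-208 and 29.2 ± 2.59 with DMSO (SD, n = 2 each). Nfya, the subunit of NF-Y that reads the CCAAT box, rose with both, at 1.07 ± 0.09 (SE, adjusted p = 1.0e-06) and 0.59 ± 0.09 (SE, adjusted p = 2.0e-04). Over the alternatives, 12 to 15 genes of this list were lower with BBC1115 and 5 to 13 with OTX-015.

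Genes that load and fire replication origins had lower medians than the mitosis genes. Of 15 replication genes (the MCM helicase, GINS, PCNA and loading factors), 13 (86.7%) were lower and 2 (13.3%) higher with BBC1115, at a median log2 fold change of -1.0, beside -0.41 for the 48 mitosis genes. With OTX-015, 12 (80%) were lower, at a median of -0.57, beside -0.04 for the mitosis genes. Mcm2 averaged 29.5 ± 1.11 RPKM with BBC1115, 47.8 ± 5.3 with OTX-015, 88.6 ± 0.368 with RVX-208 and 89.8 ± 6.0 with DMSO (SD, n = 2 each). Mcm2, a subunit of the replicative helicase, changed by -1.57 ± 0.09 (SE, adjusted p = 5.8e-08) with BBC1115 and -0.90 ± 0.09 (SE, adjusted p = 1.1e-05) with OTX-015. Pcna averaged 501.0 ± 38.9 RPKM with BBC1115, 389.0 ± 20.7 with OTX-015, 356.0 ± 4.71 with RVX-208 and 374.0 ± 27.4 with DMSO (SD, n = 2 each). Pcna, the sliding clamp, rose with BBC1115 at 0.42 ± 0.10 (SE, adjusted p = 0.0026). The difference between the replication and the mitosis genes was not tested. With RVX-208, limma called 0 of the 15 replication genes, and 1 was lower at an unadjusted p under 0.05.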
